A study of Mus musculus with 6 samples.

Results

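Transcripts of T cells, natural killer (NK) cells and B cells were examined in bulk RNA from lung tumours of a mouse model of small cell lung cancer. The 30 genes are standard lymphocyte markers, taken by symbol from the 56980 Ensembl genes of the count table, and every one of the 30 was found there. They cover the T cell receptor complex and its signalling, the coreceptors, lineage transcription factors, costimulatory and checkpoint receptors, NK receptors, cytotoxic effectors, and B and plasma cells. No level of expression was required.

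The series asked how loss of Keap1, the adaptor that directs the transcription factor NRF2 to degradation, changes gene expression in these tumours. RNA was taken about 4 months after virus injection from 3 tumours labelled QKO with Keap1 knockout and from 3 QKO control tumours. The sample titles give QKO for both groups, whereas the count columns are headed KP for the knockouts and QKO for the controls. What KP and QKO stand for, and whether the groups share all other alleles, is not given in the labels. The way Keap1 was inactivated, and the strain, sex and number of mice, are not given there either. Whether each sample is a different mouse is unstated, and a p-value here covers sample-to-sample spread, which may be technical.

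T cells recognise antigen through a receptor whose signal is carried by the CD3 chains, the kinase LCK and the kinase ZAP70. CD4 and CD8 mark helper and killer T cells, and both killer T cells and NK cells kill with perforin and granzymes. CTLA4, PD-1 and LAG3 are receptors that restrain T cells and are targets of cancer immunotherapy. B cells carry a receptor with CD79 chains, and plasma cells secrete antibodies. Small cell lung cancer is known as a tumour with few infiltrating lymphocytes.

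Libraries held 18731515 to 23759892 counted reads, and mitochondrial genes took 0.981% to 1.41% of them. Keap1 RNA stood at 80.2 ± 12.8 CPM in knockouts and 70.5 ± 10.4 CPM in controls (SD, n = 3 each). A disrupted gene can still be transcribed, and the labels cannot be checked by this level. CPM are counts divided by the TMM-scaled library total. The label of small cell lung cancer was set against the neuroendocrine granule gene Chga, which had 2, 8 and 0 reads in knockouts 1 to 3 and 156, 10 and 19038 reads in controls 1 to 3. This neuroendocrine marker was thus at or near 0 in the knockouts and also in control 2, and most abundant in control 3. The 5 neuroendocrine genes summed to 117, 33.5 and 20.9 CPM in knockouts and 74.8, 4.81 and 4122 CPM in controls. Whether the label holds for each tumour was not tested.

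Most of the 30 markers had few reads in every tumour, with Jchain as the clear exception, and most did not separate the genotypes. Ctla4 was the 1 marker that passed the test, and it was higher in the knockouts. Of the 30 markers, 15 had fewer than 50 reads in every library and 19 had fewer than 100. Jchain, the joining chain of secreted IgA and IgM, supplied 74.6% to 86.5% of the marker reads in knockouts and 42.1% to 66.0% in controls. After the filter on low counts 24 markers were tested in an edgeR quasi-likelihood fit, with Benjamini-Hochberg adjustment over all 17901 genes. The other 6 (Cd3d, Tbx21, Gata3, Ncr1, Klrb1c and Ifng) are given as reads. Of the 24, 1 was higher and 0 were lower in knockouts, against 2.42% of all genes higher and 1.89% lower. At an unadjusted p below 0.05, 2 were higher and 4 were lower, against 13.8% and 16.9% of all genes. Limma voom called Ctla4 as the 1 marker higher and none lower, against 3.31% and 1.82% of all genes. DESeq2 called 1 marker higher and 4 lower, against 11.8% and 14.8% of all genes.

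The median log2 fold change of the 24 tested markers was -0.35, and that of all genes tested was -0.08. Of the 24, 15 had negative and 9 positive values. In 6 of the 30 markers the groups did not overlap: Ctla4, Lck and Jchain lay above the controls in every knockout, and Cd5, Foxp3 and Lag3 lay below. Over all genes tested, 40.7% did not overlap, 21.5% with the knockouts above and 19.1% with the knockouts below. In bulk RNA, fewer cells of a type and less RNA per cell cannot be told apart.

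**Figure D1:**
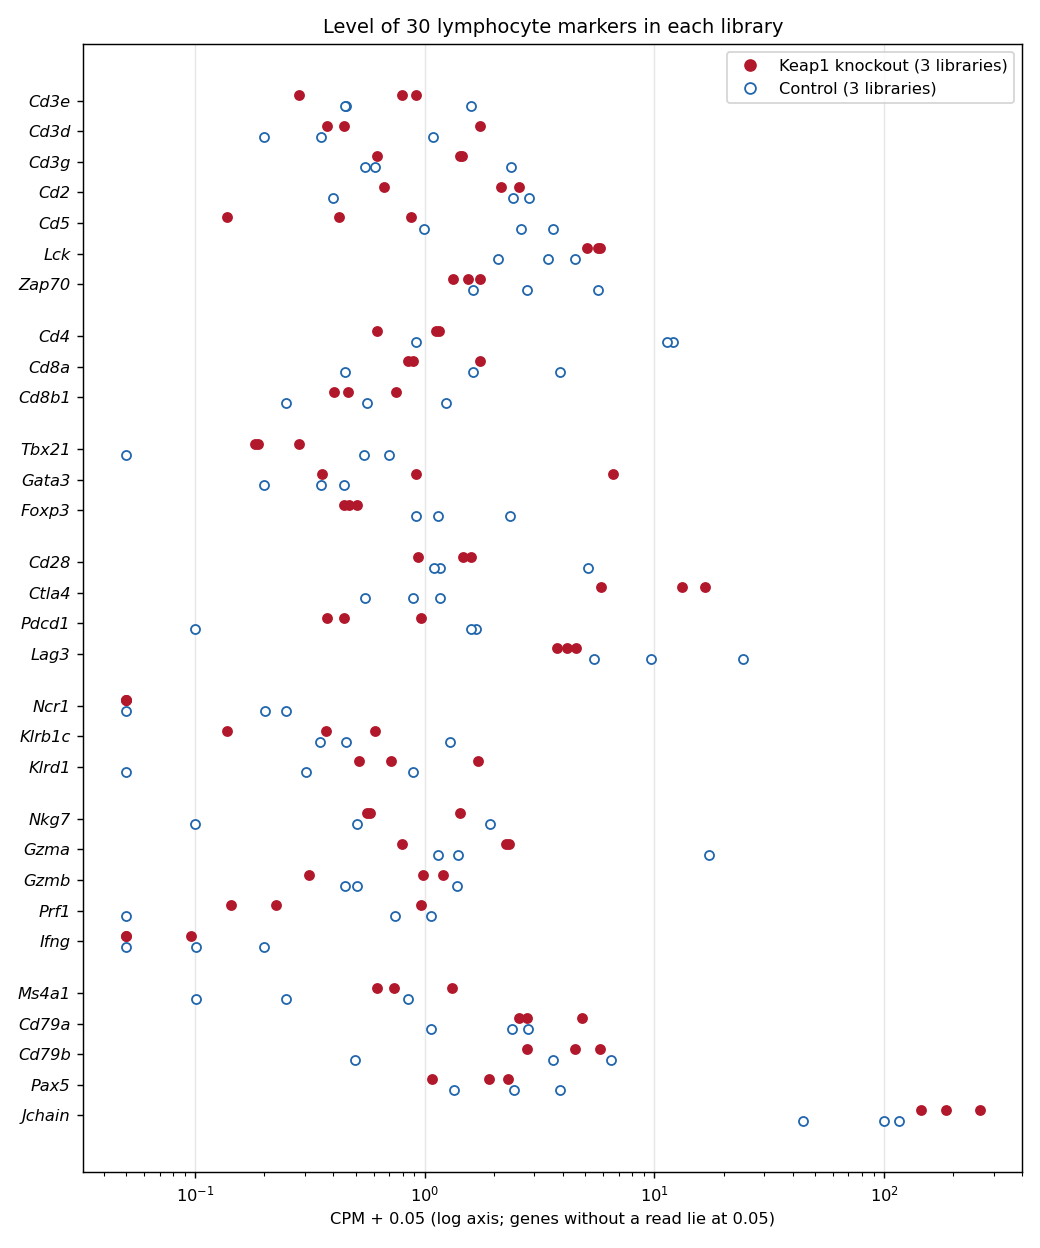
Level of each of the 30 markers, as CPM + 0.05 on a log axis, in the 3 Keap1 knockout libraries (filled red) and the 3 control libraries (open blue), 1 point per library, with blank space between roles. Most rows show mixed colours at a few CPM or less, Ctla4 shows all 3 knockouts to the right of the controls, and Jchain lies far to the right of every other marker.

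The CD3 chains, which form the signalling part of the T cell receptor, showed no separation by genotype. Cd3e had 5, 19 and 17 reads in knockouts 1 to 3 and 8, 31 and 8 in controls 1 to 3. Cd3g had 30, 30 and 13 reads in knockouts and 11, 47 and 10 in controls. Cd3d had 7, 37 and 9 reads in knockouts and 6, 21 and 3 in controls. In all 3 genes the groups overlapped, with the most reads in control 2 for Cd3e and Cd3g and in knockout 2 for Cd3d. Summed over the 3 chains, knockouts had 42, 86 and 39 reads and controls 25, 99 and 21. With 95% Poisson intervals of 30.3 to 56.8, 68.8 to 106 and 27.7 to 53.3 reads in knockouts and 16.2 to 36.9, 80.5 to 121 and 13.0 to 32.1 in controls, libraries of 1 genotype differed by more than counting error. The log2 fold change was -0.34 ± 0.76 (SE) for Cd3e and -0.02 ± 0.75 for Cd3g, with adjusted p of 0.790 and 0.988 by edgeR.

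Cd2, an adhesion receptor of T and NK cells, overlapped as well, with 2.10, 2.52 and 0.615 CPM in knockouts and 2.79, 2.38 and 0.349 CPM in controls and an edgeR adjusted p of 0.961. Lck, which starts the receptor signal, stood at 5.64, 5.72 and 5.05 CPM in knockouts and 2.03, 4.46 and 3.39 CPM in controls. Every knockout lay above every control, yet the log2 fold change of 0.73 ± 0.42 (SE) did not pass, with an edgeR adjusted p of 0.278. Zap70, which binds the phosphorylated CD3 chains, stood at 1.49, 1.69 and 1.27 CPM in knockouts and 1.57, 2.73 and 5.63 CPM in controls. Its groups overlapped, with an edgeR adjusted p of 0.211. Cd5, a receptor that dampens the T cell signal, had 8, 18 and 2 reads in knockouts and 70, 52 and 19 in controls. All knockouts lay below the controls, and its log2 fold change of -2.45 ± 0.87 (SE) had an edgeR adjusted p of 0.128. The 7 genes of this role summed to 11.7 ± 2.98 CPM in knockouts and 13.2 ± 3.33 CPM in controls (SD, n = 3 each).

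Cd4, the helper coreceptor, had 23, 24 and 13 reads in knockouts and 17, 243 and 227 in controls. Controls 2 and 3 were high, while control 1 lay among the knockouts. Cd4, at a log2 fold change of -3.13 ± 0.99 (SE), reached an edgeR adjusted p of 0.105. Cd4 passed in 2 of 14 alternatives. Without control 1, the control that resembled the knockouts, its adjusted p was 0.0376 by edgeR, in a fit that called 2.00% of all genes lower. By DESeq2, which called 14.8% of all genes lower, it was 0.0050. With any other 1 library left out the edgeR adjusted p ran from 0.115 to 0.309. Per CD3 chain read there were 0.548, 0.279 and 0.333 Cd4 reads in knockouts and 0.680, 2.45 and 10.8 in controls. The same 2 controls had the highest sums of the 6 fibroblast genes, at 33327 and 2751 CPM, against 361 CPM in control 1 and 276 to 808 CPM in knockouts, and none of these genes was at 0. Their part in the Cd4 reads was not tested.

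Cd8a and Cd8b1 encode the chains of the killer T cell coreceptor. Cd8a had 18, 37 and 18 reads in knockouts and 31, 77 and 8 in controls, and Cd8b1 had 15, 9 and 8 in knockouts and 10, 24 and 4 in controls. For both genes control 2 held the most reads and control 3 the fewest, so that the knockouts lay within the range of the controls. Adjusted p were 0.542 and 0.746 by edgeR.

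Of the lineage factors, Tbx21 (T-bet), which directs interferon-producing T cells and NK cells, had 5, 3 and 3 reads in knockouts and 0, 10 and 13 in controls. Gata3, a factor of helper T cells and innate lymphoid cells that epithelia can also express, had 140, 19 and 7 reads in knockouts and 6, 8 and 3 in controls. Knockout 1 thus held most of the Gata3 reads. Exons of Gata3 overlap annotated non-coding genes on either strand. Opposite-strand reads cannot be separated without strand, and same-strand reads not even with it. Foxp3, the defining factor of regulatory T cells, had 9, 10 and 9 reads in knockouts and 17, 22 and 46 in controls. Every knockout lay below every control, but the log2 fold change of -1.72 ± 0.50 (SE) had an edgeR adjusted p of 0.0889. Exons of Foxp3 overlap Ccdc22 and Ppp1r3f on the opposite strand and Flicr on the same strand in the GENCODE M21 annotation. Reads of the opposite-strand genes cannot be told apart without strand, and strand would not separate those of Flicr.

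**Figure D2:**
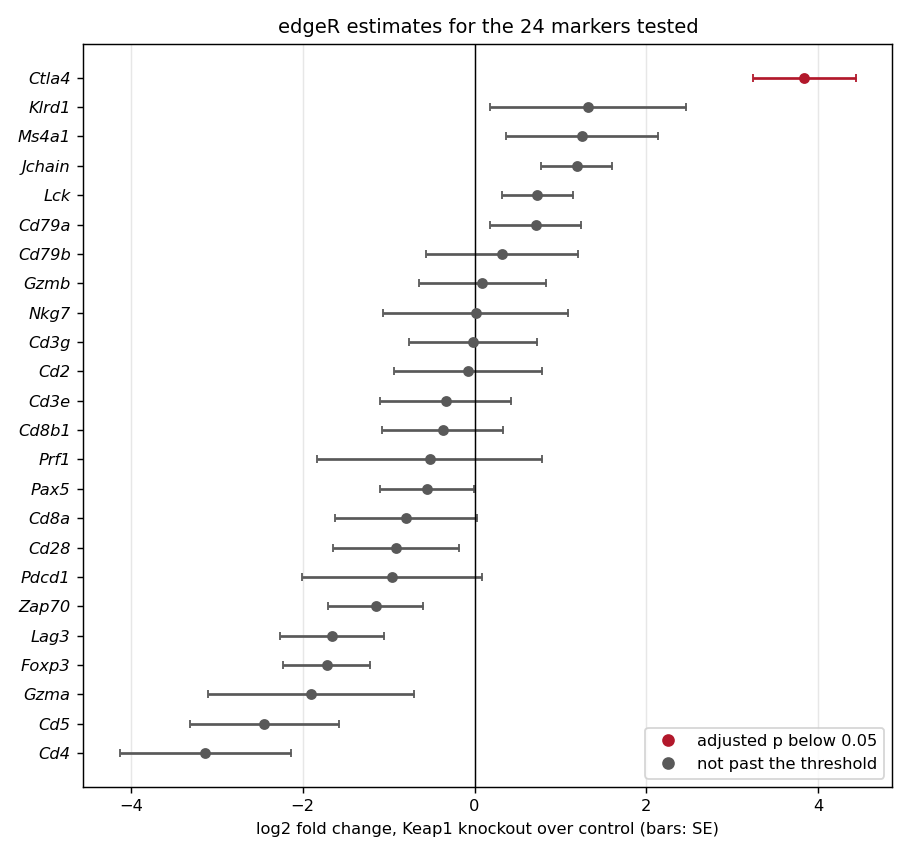
Log2 fold change of Keap1 knockout over control for the 24 markers tested, with bars of 1 SE from edgeR's quasi-likelihood fit on 3 libraries each. Ctla4, in red, is the single marker past an adjusted p of 0.05, and Cd3g, Cd2, Nkg7 and Gzmb sit close to 0.

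Of the receptors that modulate T cell activation, Ctla4 was far higher in the knockouts. This inhibitory receptor of regulatory and activated T cells, which competes with CD28 for its ligands, had 124, 361 and 298 reads in knockouts and 22, 17 and 10 in controls. In CPM these were 5.78, 16.5 and 13.1 in knockouts and 1.12, 0.842 and 0.498 in controls, and the lowest knockout lay far above the highest control. The means were 11.8 ± 5.49 CPM in knockouts and 0.819 ± 0.310 CPM in controls (SD, n = 3 each). Ctla4 rose by a log2 fold change of 3.84 ± 0.60 (SE), 14.3-fold, and its edgeR adjusted p was 0.0376. The edgeR call ended without control 1, control 2 or any 1 knockout, at adjusted p of 0.05002, 0.0692 and 0.126 to 0.217. It also ended when Xist was a term, at 0.0973, and with the replicate number as a block, at 0.1365. Over all genes, the fits without knockouts 1, 2 and 3 called 2, 0 and 0. Those without controls 1 and 2 called 735 and 269, the fit with Xist as a term called 26 and that with the block 0. Xist, a transcript of female cells, stood at 1291 to 1497 CPM in knockouts 2 and 3 and control 2 and at 0.280 to 2.33 CPM in the other libraries. The log2 fold change of Ctla4 ran from 3.50 to 4.19 over all 14 alternatives.

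The promoter of Ctla4 is shown because Ctla4 was the marker that passed the test, and that of Jchain because it was the most abundant marker and its groups did not overlap. RefSeq promoters of the GRCm38.p6 build were matched by symbol for 22 of the 30 markers. The 250 bases before each start site are printed 5′ to 3′ on the strand of the gene, at chr1:60908775-60909024 on the plus strand for Ctla4 and chr5:88527898-88528147 on the minus strand for Jchain. Capitals mark matches, on either strand, to TGACNNNGC, the core of the antioxidant response element bound by NRF2, and to AGGTGT, the core of the site bound by T-box factors.
Ctla4: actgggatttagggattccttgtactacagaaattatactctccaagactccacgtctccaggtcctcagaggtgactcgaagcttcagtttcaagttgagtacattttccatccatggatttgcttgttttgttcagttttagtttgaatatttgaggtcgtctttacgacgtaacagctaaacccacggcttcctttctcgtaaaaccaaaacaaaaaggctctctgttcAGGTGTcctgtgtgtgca
Jchain: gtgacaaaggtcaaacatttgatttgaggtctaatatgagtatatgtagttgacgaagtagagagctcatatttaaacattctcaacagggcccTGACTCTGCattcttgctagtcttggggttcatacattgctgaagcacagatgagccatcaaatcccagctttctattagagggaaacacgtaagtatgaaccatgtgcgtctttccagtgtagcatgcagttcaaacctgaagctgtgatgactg
The Ctla4 window holds 1 T-box core and the Jchain window 1 antioxidant response core. Among 32851 promoter windows of this length, 11.8% hold AGGTGT and 10.2% hold TGACNNNGC. Of the 27 windows of markers, 8 hold the first and 3 the second. These matches describe letters and show no binding.

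Ctla4 was set beside the genes of the cells that carry it. Per CD3 chain read there were 2.95, 4.20 and 7.64 Ctla4 reads in knockouts and 0.880, 0.172 and 0.476 in controls. Cd28, the activating counterpart and chromosomal neighbour of Ctla4, stood at 0.886, 1.42 and 1.54 CPM in knockouts and 1.12, 5.10 and 1.05 CPM in controls, with an edgeR adjusted p of 0.430. Per kilobase of exon, the mean level of Ctla4 was 5.07 CPM in knockouts and 0.351 CPM in controls. On the same scale Cd3g stood at 0.341 and 0.345 CPM, Cd28 at 0.209 and 0.396 CPM, and Foxp3 at 0.0927 and 0.309 CPM, knockouts before controls. Per length, Ctla4 thus exceeded the T cell genes named here in knockouts. In controls it was of the size of Cd3g, Cd28 and Foxp3.

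**Figure D3:**
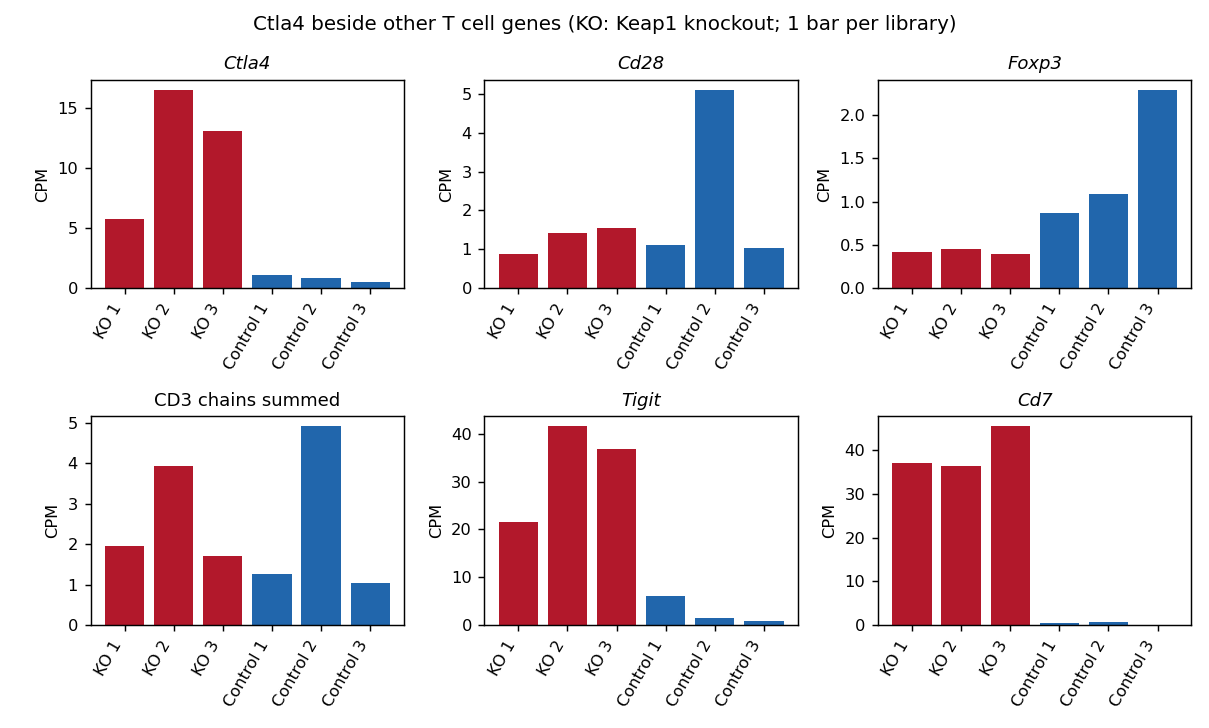
CPM of Ctla4, Cd28, Foxp3, the 3 CD3 chains summed, Tigit and Cd7, with 1 bar per library, Keap1 knockouts in red and controls in blue, each panel with its own axis from 0. Ctla4, Tigit and Cd7 are high in every knockout, Cd28 is highest in control 2, Foxp3 is highest in control 3, and the CD3 sum peaks in knockout 2 and control 2.

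Pdcd1, which encodes PD-1, had 7, 20 and 9 reads in knockouts and 32, 31 and 1 in controls. Control 3, with its single read, placed the knockouts inside the range of the controls. Lag3, an inhibitory receptor that binds MHC class II, stood at 4.52, 3.71 and 4.13 CPM in knockouts and 5.38, 9.61 and 24.1 CPM in controls. All knockouts lay below the controls, by a log2 fold change of -1.66 ± 0.61 (SE), which missed the threshold at an edgeR adjusted p of 0.133. Control 3, the highest for Lag3 and Zap70, had 23.1 Lag3 reads per CD3 chain read, against 0.942 to 2.41 in knockouts and 4.24 and 1.96 in controls 1 and 2. That library also held 4122 CPM of the 5 neuroendocrine genes, against 20.9 to 117 CPM in knockouts and 4.81 to 74.8 CPM in controls 1 and 2. Chga was without a read in knockout 3. Its part in the Lag3 and Zap70 levels was not tested.

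NK receptors were near the limit of detection. Ncr1, which encodes the NK receptor NKp46, had no read in any knockout and 3, 4 and 0 reads in controls. The 3 empty knockouts together allow a level of up to 0.0454 CPM, a limit of 3 counts that covers counting error only. Klrb1c, the NK1.1 antigen of some mouse strains, had 12, 7 and 2 reads in knockouts and 8, 25 and 6 in controls, and it belongs to a family of near copies with which reads can be shared. Klrd1, which encodes CD94 of NK and killer T cells, had 10, 36 and 15 reads in knockouts and 5, 17 and 0 in controls. The groups overlapped for all 3 receptors.

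No cytotoxic effector separated the genotypes. Gzma (granzyme A) had 49, 48 and 17 reads in knockouts and 338, 22 and 27 in controls, so that control 1 alone was high. Its log2 fold change was -1.90 ± 1.20 (SE) and turned to 0.52 without control 1, where the adjusted p was 0.5915 by edgeR. Gzmb (granzyme B) had 20, 25 and 6 reads in knockouts and 9, 27 and 8 in controls. Prf1 (perforin) had 2, 20 and 4 reads in knockouts and 20, 14 and 0 in controls. Nkg7, a protein of cytotoxic granules, had 11, 30 and 12 reads in knockouts and 9, 38 and 1 in controls. Ifng, the cytokine interferon gamma, had 0, 1 and 0 reads in knockouts and 1, 3 and 0 in controls. Adjusted p of the tested effectors other than Gzma were 0.811 to 0.994 by edgeR.

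The markers were next set against Ptprc, which encodes CD45 and is carried by all leukocytes. Ptprc stood at 12.6, 16.4 and 9.98 CPM in knockouts and 28.4, 50.8 and 17.2 CPM in controls. All knockouts lay below the controls, but the log2 fold change of -1.30 ± 0.45 (SE) missed the threshold, at an edgeR adjusted p of 0.123. Per Ptprc read there were 0.156, 0.240 and 0.172 CD3 chain reads in knockouts and 0.0447, 0.0966 and 0.0607 in controls. The groups did not overlap in this ratio, while the CD3 sum itself overlapped. The ratio rests on 42, 86 and 39 CD3 chain reads in knockouts and 25, 99 and 21 in controls. Its denominator was itself lower in every knockout, and all 7 pan-leukocyte genes had negative log2 fold changes. With Coro1a, Cd53 and Laptm5 summed in place of Ptprc the ratios were 0.0278, 0.0532 and 0.0310 in knockouts and 0.0100, 0.0250 and 0.0122 in controls, and they again did not overlap. For all 7 receptor complex genes, the ratio to Ptprc was 0.896 ± 0.0210 in knockouts and 0.463 ± 0.172 in controls (SD, n = 3 each). Without Lck, chosen after its values were seen, it was 0.470, 0.546 and 0.370 in knockouts and 0.324, 0.248 and 0.462 in controls, and the groups overlapped. The receptor chain genes Trac, Trbc2 and Cd247, outside the 30, had log2 fold changes of -1.12, -2.22 and 0.50, none past the threshold by edgeR. Ptprc had 270, 359 and 227 reads in knockouts and 559, 1025 and 346 in controls. Per Ptprc read, Trac, Trbc2 and Cd247 each overlapped between the groups. The separation seen for the CD3 chains was thus not shared by these 3 receptor chain genes.

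Markers of other cell types are given beside these ratios. Of 11 macrophage genes, 1 fell, against 1.89% of all genes tested. Of these 11, 10 had negative log2 fold changes, with a median of -1.17, whereas 46.1% of all genes tested had positive ones and their median was -0.08. None of the 11 was at 0. Summed macrophage levels ran from 632 to 1209 CPM in knockouts and 405 to 1486 CPM in controls. The macrophage gene that fell was Fcgr3, an Fc receptor also borne by NK cells, at 15.4 ± 0.581 CPM in knockouts and 34.7 ± 6.54 CPM in controls (SD, n = 3 each), with an edgeR adjusted p of 0.0492. That call ended in 9 of 14 alternatives, among them limma voom. Summed endothelial levels ran from 111 to 191 CPM in knockouts and 86.9 to 306 CPM in controls, and 0 of 6 endothelial genes passed. Control 2 held the highest level of 12 of the 30 markers, of Ptprc and of the endothelial and macrophage sums, whereas control 3 held the lowest level of 13, ties apart. The part of these cell types in the ratios was not tested.

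**Figure D4:**
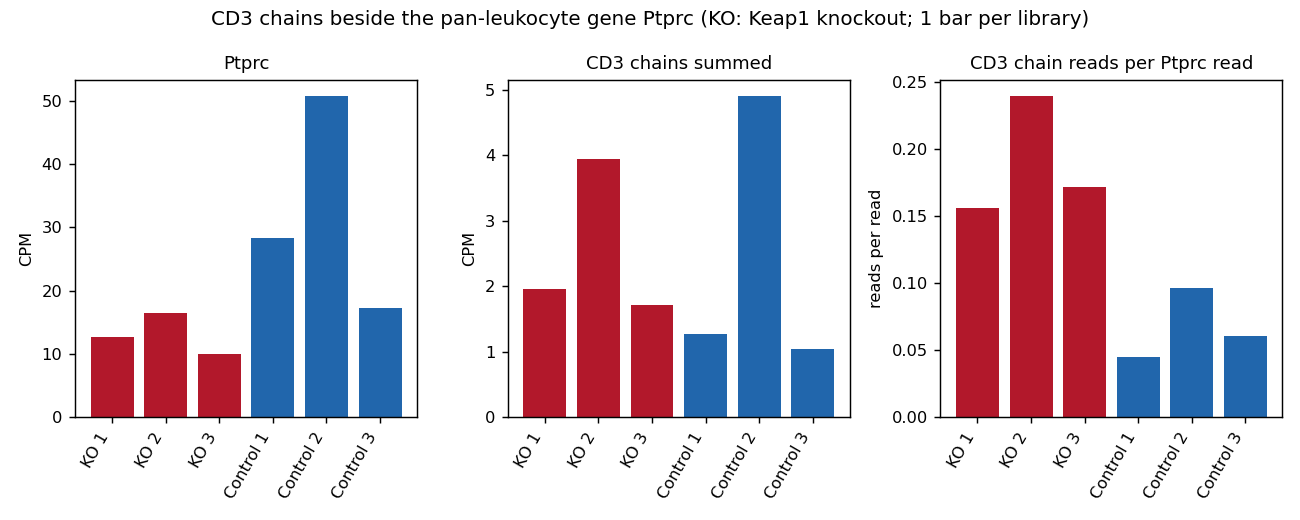
CPM of Ptprc, CPM summed over the 3 CD3 chains, and CD3 chain reads per Ptprc read, with 1 bar per library, Keap1 knockouts in red and controls in blue, axes from 0. Ptprc is lower in every knockout than in any control, the CD3 sum overlaps between the groups, and the ratio is higher in every knockout, at 0.156 to 0.240 against 0.0447 to 0.0966.

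B cell receptor genes overlapped between the genotypes. Cd79a, a signalling chain of the B cell receptor, had 103, 55 and 62 reads in knockouts and 20, 56 and 47 in controls. Its partner Cd79b had 96, 126 and 62 reads in knockouts and 70, 129 and 9 in controls. Ms4a1, which encodes CD20, had 27, 15 and 13 reads in knockouts and 1, 16 and 4 in controls. Pax5, the B lineage factor, had 22, 49 and 42 reads in knockouts and 47, 26 and 77 in controls, and its exons overlap antisense non-coding genes. Adjusted p of these 4 genes were 0.372 to 0.829 by edgeR. Their sums were 10.2 ± 2.04 CPM in knockouts and 8.36 ± 2.50 CPM in controls (SD, n = 3 each).

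Jchain was far above the other markers, with 3106, 4082 and 5939 reads in knockouts and 1967, 2341 and 892 in controls. In CPM these were 145, 187 and 261 in knockouts and 99.8, 116 and 44.4 in controls, and all knockouts lay above the controls. The log2 fold change of 1.19 ± 0.42 (SE) did not pass, with an edgeR adjusted p of 0.124, and it passed in 0 of 14 alternatives, where the adjusted p ran from 0.0555 to 0.325. Per kilobase of exon, Jchain averaged 78.5 CPM in knockouts and 34.5 CPM in controls, against 2.30 and 1.40 CPM for Cd79a.

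Antibody genes were abundant beside it. Igkc, the kappa light chain constant gene, stood at 459, 413 and 506 CPM in knockouts and 212, 373 and 168 CPM in controls, all knockouts above the controls, with an edgeR adjusted p of 0.142. Ighm, the IgM heavy chain gene, stood at 36.6, 5.86 and 19.5 CPM in knockouts and 1.32, 22.4 and 3.24 CPM in controls. Igha, the IgA heavy chain gene, chosen after its values were seen, stood at 532, 809 and 1056 CPM in knockouts and 418, 580 and 139 CPM in controls. Jchain reads per Igha read were 0.272, 0.231 and 0.247 in knockouts and 0.239, 0.200 and 0.319 in controls, with the groups overlapping. Derl3, a gene of protein quality control in the endoplasmic reticulum that plasma cells express, rose to 25.0 ± 5.28 CPM in knockouts, against 4.84 ± 1.40 CPM in controls (SD, n = 3 each), with an edgeR adjusted p of 0.0363. The Derl3 call ended without control 2 (edgeR adjusted p of 0.0608) and without any 1 knockout (0.151 to 0.215). It also ended with Xist level as a term (0.0973) and with the replicate number as a block (0.1365). Over all genes these fits called 269 without control 2, 0 to 2 without a knockout, 26 with Xist level as a term and 0 with the block. Mzb1 and Tnfrsf17, plasma cell genes chosen after their values were seen, had 26, 11 and 17 and 4, 6 and 8 reads in knockouts, and 16, 2 and 9 and 0, 10 and 5 reads in controls.

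**Figure D5:**
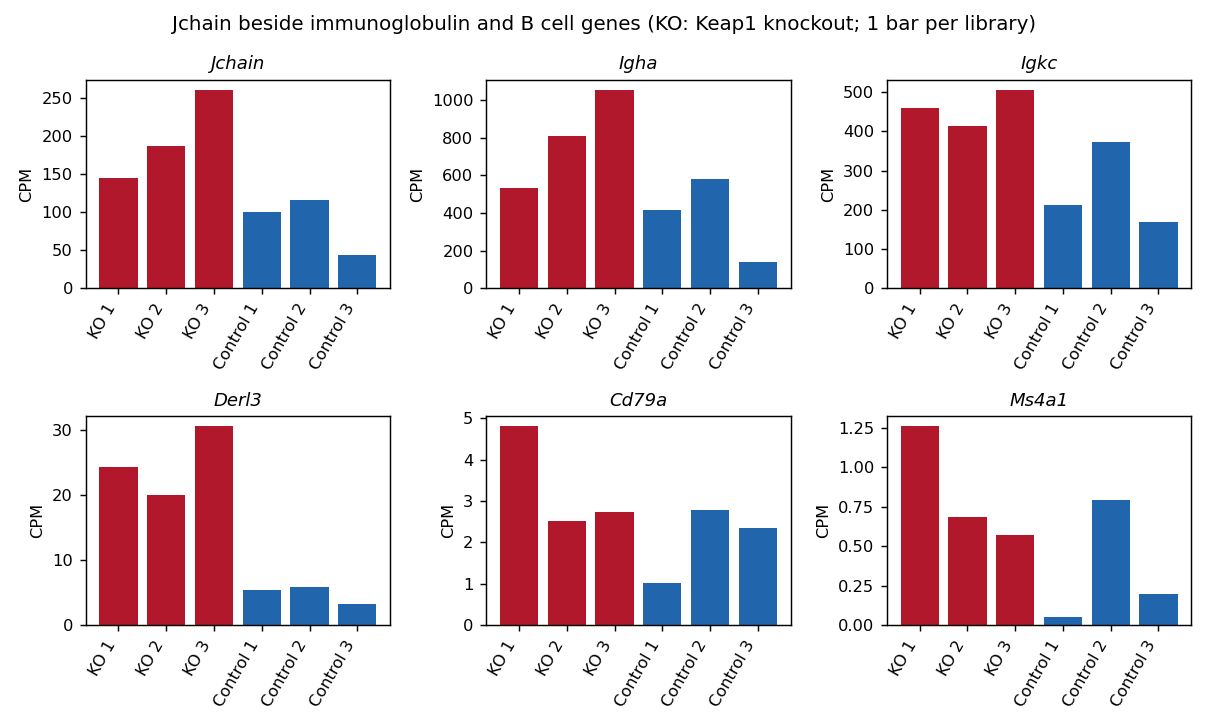
CPM of Jchain, the antibody genes Igha and Igkc, the secretory gene Derl3 and the B cell genes Cd79a and Ms4a1, with 1 bar per library, Keap1 knockouts in red and controls in blue, each panel with its own axis from 0. Jchain, Igkc and Derl3 are higher in every knockout than in any control, while Igha, Cd79a and Ms4a1 overlap.

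Further lymphocyte genes outside the 30 were read from the same edgeR fit. Over all genes tested, 2.42% rose, 1.89% fell and the median log2 fold change was -0.08. Of 34 other T cell genes 31 were tested, 1 rose and 0 fell, with a median log2 fold change of -0.83. Of 22 other NK and cytotoxic genes 7 were tested, 1 rose and 0 fell, with a median of 0.09. Of 27 other B and plasma cell genes 25 were tested, 1 rose (Derl3) and 0 fell, with a median of -0.66. The receptor constant genes Trac and Trbc2 overlapped, with 30, 19 and 6 and 50, 36 and 30 reads in knockouts and 22, 67 and 22 and 373, 108 and 11 reads in controls. Cd247, the zeta chain of the T cell receptor, had 6, 44 and 4 reads in knockouts and 2, 16 and 17 reads in controls.

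The T cell gene that rose was Cd7, a surface receptor of T and NK cells. It had 794, 793 and 1034 reads in knockouts and 9, 15 and 1 in controls. Its log2 fold change was 6.55 ± 0.85 (SE), with an edgeR adjusted p of 0.0308. The Cd7 call ended without any 1 knockout (0.138 to 0.196), with Xist level as a term (0.0821) and with the replicate number as a block (0.117). Over all genes these fits called 0 to 2 without a knockout, 26 with Xist level as a term and 0 with the block. The NK gene that rose was Eomes, a T-box factor of NK and killer T cells and of early endoderm, with 19176, 22722 and 22654 reads in knockouts and 12, 16 and 3 in controls. The edgeR call of Eomes ended without any 1 knockout, at adjusted p of 0.0639 to 0.125, in fits that called 0 to 2 of all genes. It also ended with the replicate number as a block, at an edgeR adjusted p of 0.106, where 0 genes were called. Tigit, a checkpoint receptor of T and NK cells chosen after its values were seen, stood at 21.5, 41.5 and 36.7 CPM in knockouts and 6.14, 1.44 and 0.946 CPM in controls. All knockouts lay above the controls, without passing, at an edgeR adjusted p of 0.0622. In the same libraries Ncr1, Ifng, Prf1 and the CD3 chains had the low reads given above. Klrd1 and Lck had log2 fold changes of 1.32 and 0.73, neither past the threshold by edgeR. Which cells held the Cd7, Eomes and Tigit reads was not tested.

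The authors' deposited table, made with DESeq2, lists 27 of the 30 markers, without Ncr1, Gzma and Ifng. At an adjusted p below 0.05 the authors' deposited table has 2 markers higher in knockouts and 4 lower, against 7.10% and 10.7% of all genes listed there. The authors' deposited table gives Ctla4 a log2 fold change of 3.84 and an adjusted p of 1.78e-08, and Gata3, whose reads lay mostly in knockout 1, 3.17 and 0.0420. The lower markers in the authors' deposited table were Cd4 (adjusted p of 0.0076), Cd5 (0.0420), Lag3 (0.0478) and Foxp3 (0.0488). None of these 4 passed the edgeR test on the same counts, whereas DESeq2 on the genes that passed the filter called Cd4, Cd5, Lag3 and Foxp3 lower.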

How the data were processed

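Raw read counts per Ensembl gene were deposited by the authors for 6 samples. Per the submitters' processing notes, reads were aligned with STAR to mm39 and compared with DESeq2. The sources used here do not give the counting tool, annotation or strand setting. The authors' deposited table holds log2 fold changes, Wald scores, p-values and a mean normalized signal per gene, positive when higher in the knockout. Symbols came from a GENCODE M21 table (52073 of 56980 identifiers). Exon lengths and overlaps came from the same release, of an earlier build than mm39.

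Genes passing filterByExpr were scaled by TMM and tested with edgeR 4.0.16 in R 4.3.3 (robust quasi-likelihood fit, genotype as the only term, two-sided, Benjamini-Hochberg, threshold 0.05), after a test on simulated data. CPM use the same scaling for all genes. Alternatives were scaling by RLE or the upper quartile, testing every gene with a read, 1 CPM in 3 samples, DESeq2 1.42.0, limma voom 3.58.1, each library left out, the replicate number as a block, Xist level as a term, and a threshold of 0.1. Named genes were the 30 markers, Eomes, Trac, Trbc2, Cd247, Ighm, Igkc, Ptprc and up to 6 others past the threshold in the 3 lists of further lymphocyte genes, which gave Cd7 and Derl3; 1 further gene of this rule is not reported here. Markers and lists were chosen with earlier results of these data known. Counting intervals and limits cover counting error only.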

Additional observations from a re-analysis of the deposited data

How the results depend on the processing

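Over all genes the main test called 771, against 465 without the filter, 4642 by DESeq2, 26 with Xist level as a term, 3117 at an adjusted p below 0.1, and 0 to 3209 with 1 library left out. Markers called higher numbered 1 (Ctla4), 0 with Xist level as a term, and 0 to 1 with 1 library left out. Markers called lower numbered 0, but 4 by DESeq2, 1 (Foxp3) at the threshold of 0.1, and 0 to 1 with 1 library left out. The replicate numbers showed no sign of pairing the samples. Deviations of same-numbered libraries correlated at 0.0176, 0.00012 and 0.0507, and 3 of 6 libraries correlated best with their own number. With so few libraries this cannot exclude a pairing. With the replicate number as a block edgeR called 0 genes and 0 markers, with 4026 genes at an unadjusted p below 0.05, and Ctla4 had an adjusted p of 0.136. The log2 ratio of T cell receptor complex reads per Ptprc read was 0.95, 0.42 without Lck and 0.77 to 1.29 with 1 library left out. With 1 library left out, log2 ratios of summed levels ran from -0.38 to 0.05 for the T cell receptor complex, -1.46 to 0.07 for NK and cytotoxic genes, 0.16 to 0.56 for B cell genes without Jchain and 0.87 to 1.45 for Jchain. The sign of the log2 fold change turned under 1 or more alternatives in 11 of the 24 tested markers (Cd2, Cd28, Cd3e, Cd3g, Cd79b, Cd8a, Cd8b1, Gzma, Gzmb, Nkg7 and Prf1), and 0 of these passed the threshold, either in the main test or in a fit that turned the sign. Scaling moved these sums by less than the spread between libraries. Markers with a few reads allow no statement on small differences. The causes of these changes were not tested, and a fit that leaves a library out also has fewer samples.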

Other observations

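Of 14 genes that interferon gamma induces, 13 were tested, with a median log2 fold change of -0.56, against -0.08 over all genes tested. By edgeR 0 of the 13 passed, against 2.42% of all genes higher and 1.89% lower, and by limma voom 0, against 3.31% and 1.82%. DESeq2 called 4, against 11.8% of all genes higher and 14.8% lower, and 3 had an unadjusted edgeR p below 0.05, against 13.8% and 16.9%. Cxcl9, a chemokine that draws T cells, stood at 1.26, 2.79 and 0.615 CPM in knockouts and 11.7, 28.2 and 8.02 CPM in controls, with an adjusted p of 0.0654 by edgeR. Gbp5, a guanylate-binding protein of host defence, stood at 2.28, 2.20 and 1.89 CPM in knockouts and 7.92, 17.0 and 6.27 CPM in controls, with an adjusted p of 0.0583 by edgeR. In both genes every knockout lay below every control, as in 4 of the 14 genes and in 19.1% of all genes tested. The summed level of the 14 genes overlapped, at 404, 450 and 375 CPM in knockouts and 556, 438 and 165 CPM in controls. Gbp2, a relative of Gbp5, stood at 61.5, 65.2 and 55.2 CPM in knockouts and 62.6, 32.7 and 6.57 CPM in controls, and its groups overlapped. These 3 genes were chosen after their values were seen.

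IgG genes varied within each genotype. Ighg2c, a heavy chain gene of IgG, stood at 136, 28.3 and 20.7 CPM in knockouts and 13.6, 43.9 and 31.7 CPM in controls, and Ighg1 at 29.3, 3.48 and 4.84 CPM in knockouts and 1.07, 14.7 and 68.3 CPM in controls. Knockout 1 was highest for Ighg2c and control 3 for Ighg1. The summed levels of 6 neutrophil genes were 9.70, 8.79 and 7.03 CPM in knockouts and 37.5, 17.3 and 2.89 CPM in controls, and those of 6 mast cell and basophil genes 0.560, 0.412 and 0.571 CPM in knockouts and 3.60, 0.495 and 3.63 CPM in controls.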
